A study of Mus musculus with 1505 samples.

Results

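Axon guidance ligands and receptors are the secreted and membrane-bound proteins that attract or repel growing axons, and the receptors that read them. The members were every row of the exonic table of counts whose symbol names a semaphorin of classes 3 to 7, a plexin, a neuropilin, a netrin or netrin-G, a receptor of the Unc5 or Dcc type, a Slit, a Robo, an Eph receptor or an ephrin. The rule found 70 genes among the 42381 genes of the table, with 7 class 3, 6 class 4 and 7 class 5, 6 and 7 semaphorins, 11 plexins and neuropilins, 5 netrins and netrin-Gs, 5 netrin receptors, 3 Slits, 4 Robo receptors, 9 EphA and 5 EphB receptors, 5 ephrin-As and 3 ephrin-Bs. The rule used the names alone and no measured value, though it was chosen with earlier results of these data known.

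Guidance cues work in families. Secreted class 3 semaphorins bind neuropilins, which signal through A-type plexins, whereas Sema3e binds Plxnd1 directly. Netrin-1 attracts axons through Dcc and repels them through Unc5 receptors, and netrin-Gs are anchored in the membrane and bind ligands of another kind at synapses. Slits repel axons through Robo receptors, and ephrins act at cell contacts on Eph receptors, with EphA receptors preferring ephrin-As and EphB receptors preferring ephrin-Bs. Many of these genes remain in use in the adult cortex, where they take part in the placing and the upkeep of synapses.

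The data came from Patch-seq, in which a neuron in an acute slice of mouse primary motor cortex is recorded through a pipette and its RNA is then drawn out and sequenced by Smart-seq2. The animals were adult mice of both sexes, wild type or carrying a Cre driver (Viaat, Sst, Vip, Pvalb, Npy, Vipr2, Slc17a8 or Gnb4) with the Ai9 tdTomato reporter, which marks the cells that a driver selects for recording. The labels do not tie a cell to an animal or a line. Of the cells recorded at 25 °C, 1228 carry the name of a transcriptomic type (t-type) and were used, together with 177 cells of a later experiment at 34 °C in Sst-Cre and Pvalb-Cre animals with the Ai9 reporter.

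The t-types form families, of which 7 are large. The GABAergic families are Pvalb (286 cells), Sst (272 cells), Vip (152 cells) and Lamp5 (92 cells). The large glutamatergic families are the intratelencephalic IT cells (253 cells), the extratelencephalic ET cells (48 cells, PT in the labels) and the corticothalamic CT cells (83 cells). Smaller ones are L6b (24 cells), Sncg (13 cells) and NP (5 cells). Cells had between 2588 and 18172944 exonic counts, with a median of 1267852. Summed markers of GABAergic neurons lay between 3232 and 10050 CPM, that is counts scaled to a common total, in the 4 large GABAergic families and between 29.9 and 58.9 CPM in IT, ET, CT and L6b cells, so families and markers matched. Markers of glia were found in all families. Summed with markers of endothelial and mural cells, they passed 1000 CPM in 792 of the 1228 cells, called rich in glial markers below. They included 190 of 253 IT, 40 of 48 ET, 62 of 83 CT and 19 of 24 L6b cells. Ratios without them thus rest on fewer cells. In NP cells, astrocyte markers summed to 1182 CPM with 5 of the 8 genes at 0, so few genes can make up the sum. No label names an animal, hence each family was handled as 1 sample, no test was possible, and no p-value is given. Ranges in parentheses after a level are exact Poisson intervals (95%), which cover counting error alone. The spread over cells is given as quartiles. A member is called higher or lower where its summed level, after adding 1 CPM, differed at least 2-fold and reached 5 CPM in the higher group. Such log2 ratios understate the difference of members with low levels. The authors placed cells in t-types with variable genes that may include members. Families were unevenly spread over time. With the recordings divided at a change of calendar year into an early and a late period, Vip, Lamp5, CT and L6b cells were almost all late, and 43 of the 48 ET cells were early.

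**Figure D1:**
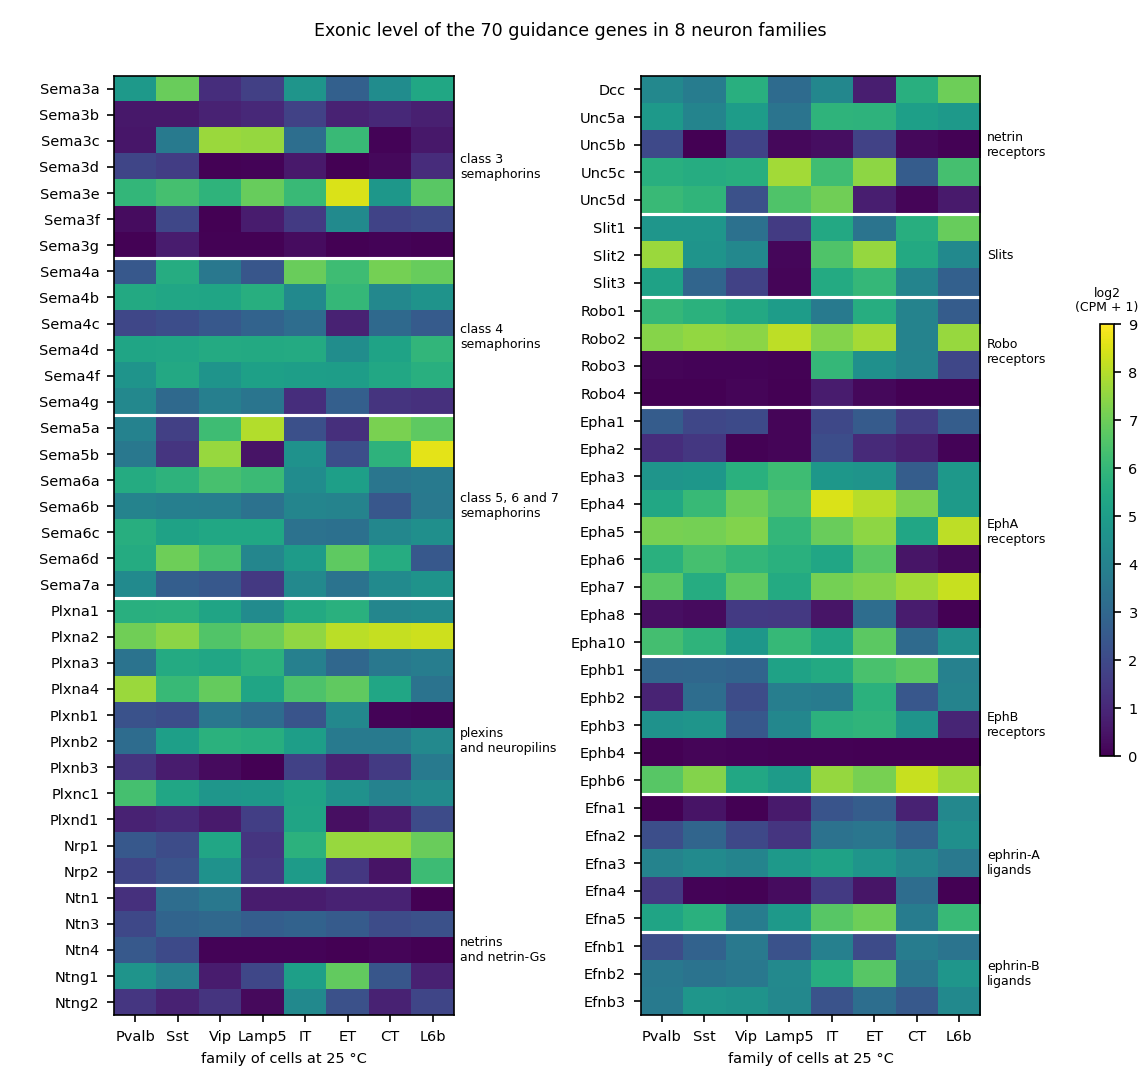
Colour gives log2(CPM + 1) of the summed exonic counts of each of the 70 members (rows, grouped by role) in 8 neuron families (columns) at 25 °C. Plxna2 and Epha5 are bright in every family, whereas Robo3, Plxnd1, Unc5d, Sema3c, Sema5a and Sema5b are bright in some families and dark in others.

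A core of the guidance genes was found in every large family. At 5 CPM or more, 27 members were present in all 7 large families, 34 in 1 to 6 of them and 9 in none. The 9 were Epha2, Ephb4, Ntn4, Plxnb3, Robo4, Sema3b, Sema3d, Sema3g and Unc5b. Among the other 61 members the family with the highest level was ET for 18, IT for 11, Pvalb and CT for 8 each, Vip for 7, Lamp5 for 5 and Sst for 4. The same counts were not made over all genes, so they describe the members alone and do not set them apart from other genes. Plxna2, a signalling receptor for class 3 and class 6 semaphorins, was a member of the core, with 92.8 CPM in Vip cells and 294 CPM in CT cells as its extremes. Epha5, a receptor for ephrin-As, ranged from 39 CPM in CT cells to 178 CPM in ET cells. Robo2, a Slit receptor, lay between 160 and 273 CPM outside CT cells and at 15.1 CPM (14.5 to 15.8) in CT cells. The library kit does not keep the strand, and 18 members share exon bases with another gene, at most 14.1% of them (Efna3). For Ntng2 it is 14%, for Plxna1 10.7% and for Efna4 10.5%, so part of these reads could belong to the neighbour.

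Levels of different genes were set side by side per kb of exon, and summed over a role they set the families apart. The length counts every annotated exon of a gene, with 25.4 kb for Slit2 and 6.07 kb for Slit3. Orders between genes, and the weight of a gene in a sum, depend on this choice. The 3 Slits together reached 18.1 CPM per kb in Pvalb and IT cells and 19.5 in ET cells, compared with 0.353 in Lamp5 cells. Their receptors shared this order only in part. The 4 Robo genes also had their highest sums in IT (19.5 CPM per kb) and ET cells (19.1). They summed to 17.9 in Lamp5 cells, however, and to 4.13 in CT cells. Lamp5 cells held the least Slit RNA per kb and the highest level of Robo2 (273 CPM) of the 7 families. EphB receptors summed to 98.8 CPM per kb in CT cells and to 12.9 in Vip cells. Class 3 semaphorins summed to 52.2 CPM per kb in ET cells and to 4.99 in CT cells. Class 5, 6 and 7 semaphorins were highest in Vip cells, with 60.02 CPM per kb. Among ephrin-As, IT and ET cells had 47.6 and 49.9 CPM per kb, and the other large families between 11.1 and 23.8. By single genes, the highest values per kb were those of Ephb6 in CT cells (79.7 CPM per kb), Epha4 in IT cells (44), Sema3e in ET cells (38.6), Efna5 in ET cells (31.6), Sema3c in Vip cells (28.2), Sema5b in Vip cells (27.6), Sema4a in CT cells (25.7), Epha7 in CT cells (21.8) and Nrp1 in ET cells (19.7). Slit3 in ET cells (10.2), Slit1 in CT cells (8.30), Robo2 in Lamp5 cells (16.1), Unc5d (14.3) and Unc5a (13.6) in IT cells, and Ntng1 in ET cells (13.7), a ligand of Lrrc4c, stood below them.

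The 3 largest differences between GABAergic and glutamatergic neurons were of the receptors Robo3, Nrp1 and Plxnd1. Of the large families, Plxnd1 reached 5 CPM in IT cells alone (37.5 CPM), with 2.16 CPM in Lamp5 and 0.303 CPM in ET cells. Robo3, a Robo family member known from midline crossing in the hindbrain, was almost limited to glutamatergic cells. It reached 62.8 CPM (62.1 to 63.6) in IT cells, 22 CPM in ET cells and 15.8 CPM in CT cells, and lay at or below 0.10 CPM in the 4 GABAergic families. After thinning each cell to 200000 counts, 41.2% (35 to 47.8, exact binomial) of the IT cells had a Robo3 read, and 0.733% (0.0888 to 2.62) of the Pvalb cells. Nrp1, a receptor for class 3 semaphorins and VEGF, was highest in the large glutamatergic families but not limited to them. It had 193 CPM in ET cells (quartiles over cells 58.6, 146 and 315 CPM), 192 CPM in CT and 54.3 CPM in IT cells. Its GABAergic levels were 39.1 CPM in Vip cells and 1.6 to 4.51 CPM in the other 3 families.

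Averaged over families with equal weight, the 802 GABAergic cells of 4 families and the 384 glutamatergic cells of 3 families could be compared for 57 members with 5 CPM in either group. Of these, 9 were higher in GABAergic neurons, where 8.83% of all genes tested were called, and 19 were higher in glutamatergic neurons, where 10.3% of all genes were called. The median log2 ratio was -0.13 over these members and 0.06 over all genes. Robo3 (-5.03 on the log2 scale), Nrp1 (-3.49), Plxnd1 (-2.68), the immune and retinal semaphorin Sema4a (-2.65), Ephb1 (-2.40), Sema3f (-2.21), Ntng1 (-2.14) and Ntng2 (-2.07) had the largest differences in favour of glutamatergic neurons. Sema3f rested on 1 cell, without which the log2 ratio was -0.77. All 4 EphB receptors with 5 CPM were higher in glutamatergic neurons, among them Ephb6, which lacks kinase activity, with 82.7 and 210 CPM. In the late cells alone Ephb2 had a log2 ratio of 0.85, the opposite direction to its ratio of -1.72 over all cells.

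The members higher in GABAergic neurons were mostly semaphorins and differed less. They were Sema3c (100 and 25.2 CPM, log2 ratio 1.95), the attractant Ntn1 (1.86), Sema4g (1.80), Sema6c (1.71), the plexin Plxna3 (1.67), the ephrin Efnb3 (1.61), Sema6a (1.53), Epha3 (1.2) and Sema3a (1.14). Without the cells over 1000 CPM of glial markers the ratio of Sema3c was 0.70 and that of Sema3a 0.29. Summed oligodendrocyte markers lay between 386 and 720 CPM in the GABAergic families, and between 741 and 1630 CPM in IT, ET and CT cells. Their part in these ratios was not tested.

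**Figure D2:**
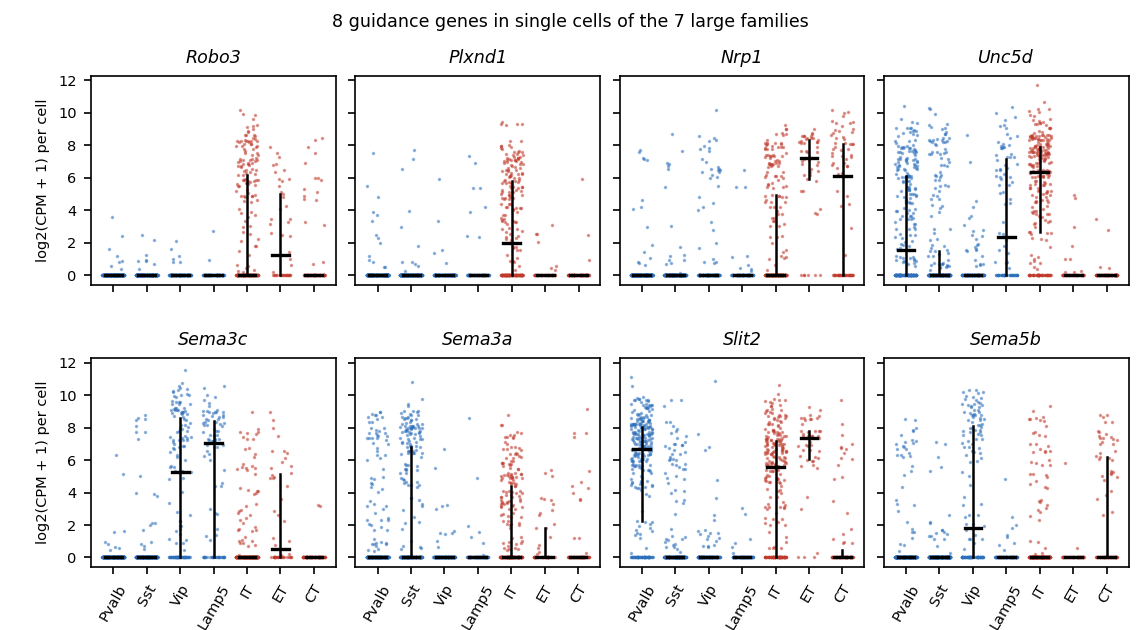
Each point is a cell and gives log2(CPM + 1) of 1 of 8 members (panels) in the 7 large families (blue GABAergic, red glutamatergic). Bars mark the median and the quartiles over cells. Points above 4 lie mainly in red columns for Robo3, in the IT column for Plxnd1 and in Vip and Lamp5 cells for Sema3c. The lower quartile of Slit2 is above 0 in Pvalb and ET cells.

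Among GABAergic neurons, Pvalb and Sst cells, which derive from the medial ganglionic eminence, were compared with Vip and Lamp5 cells. The 3 largest ratios in each direction were of ligands. Sema3a, a repellent for cortical axons, reached 121 CPM in Sst and 27.8 CPM in Pvalb cells but 2.29 CPM in Lamp5 and 1.24 CPM in Vip cells (log2 ratio 4.77). Sema3c, another class 3 semaphorin, had the reverse order, with 201 CPM in Vip and 188 CPM in Lamp5 cells but 0.454 CPM in Pvalb and 11.8 CPM in Sst cells (-4.78). A read of Sema3c was found in 95 of 152 Vip cells and 65 of 92 Lamp5 cells, compared with 9 of 286 Pvalb cells and 20 of 272 Sst cells. The upper quartile of Sema3c over cells was 381 CPM in Vip and 333 CPM in Lamp5 cells, and 0 in the other pair, so the groups overlapped only in cells without reads and in a minority of Sst and Pvalb cells.

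All 3 Slits were higher in the Pvalb and Sst pair, Slit2 by 3.54, Slit3 by 3.30 and Slit1 by 2.01 on the log2 scale. Ntng1 (2.92), Ephb6 (1.83), Sema7a (1.64), a membrane-anchored semaphorin, and Sema4a (1.61) were the other members with large ratios. In the reverse direction stood the transmembrane semaphorins Sema5a (-4.09) and Sema5b (-3.73), both neuropilins (Nrp1 -2.12 and Nrp2 -1.65), Ephb1 (-1.48), Unc5c (-1.43) and Plxnb2 (-1.29). In all, 11 of 53 members were higher in Pvalb and Sst cells, where 8.02% of all genes were called, and 11 were lower, where 6.98% were. Of them, 8 and 8 were also past 2-fold in each recording period, among all genes 5.5% and 3.37%. Nrp1 had the opposite direction in the early period, when only 6 Vip and 8 Lamp5 cells were recorded.

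Between Pvalb and Sst cells the largest ratios were those of Sema3c, Sema4a and Slit2. Slit2 reached 202 CPM (200 to 203) in Pvalb and 24.3 CPM in Sst cells. In single Pvalb cells the quartiles of Slit2 were 3.69, 100 and 265 CPM, and in single Sst cells all were 0. Higher in Pvalb cells were also Sema5a (14.9 and 2.24 CPM), Slit3 (35.5 and 6.62 CPM), Sema5b (11.2 and 1.64 CPM), Sema7a (18.7 and 5.42 CPM), Plxna4 (199 and 65.8 CPM), a plexin that serves Sema3a signalling, Sema4g (17.6 and 7.49 CPM) and Epha7 (102 and 46.5 CPM). Sst cells had more Sema4a (47.1 against 4.51 CPM), Sema3c (11.8 against 0.454 CPM), Sema3a (121 against 27.8 CPM), Ephb2 (8.28 against 0.841 CPM), Plxna3 (43.9 against 9.73 CPM), Plxnb2 (32.6 against 8.09 CPM), Ntn1 (8.29 against 1.38 CPM) and Sema6d (128 against 45 CPM). Of the Ntn1 reads of Sst cells, 87.6% came from the 12 cells of the type Sst Chodl, and the median level over Sst types was 0.358 CPM. With Plxnc1, higher in Pvalb cells (80.8 and 39.4 CPM), and Efnb3, higher in Sst cells (25.2 against 11.9 CPM), these made 9 of 50 members higher and 9 lower in Pvalb cells, where 7.58% and 7.39% of all genes were called. In both periods alike, 7 and 8 members were past 2-fold, and 4.46% and 4.8% of all genes.

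Vip and Lamp5 cells differed most in Sema5b and in Unc5d, a receptor for netrins. Sema5b, which is known to inhibit neurites in the retina, reached 196 CPM (194 to 198) in Vip cells and 0.4 CPM (0.303 to 0.518) in Lamp5 cells, a log2 ratio of 7.13. Nrp1 (39.1 and 1.6 CPM), Nrp2 (22.8 and 1.84 CPM), Ntn1 (11 and 0.610 CPM), Dcc (49.7 and 7.93 CPM), Sema6d (80.6 and 16.6 CPM) and Slit1 (9.16 and 1.99 CPM) were also higher in Vip cells. As a mean over t-types Slit1 had a log2 ratio of -0.60. Of the repulsive netrin receptors, Unc5a was higher in Vip cells too (30.4 and 9.91 CPM), whereas Unc5d (3.70 and 90.5 CPM) and Unc5c (49.5 and 215 CPM) went the other way. Lamp5 cells also had more Sema5a (252 against 72.2 CPM), Ephb1 (35.7 against 6.51 CPM), Ephb2 (13.3 against 3.22 CPM), Ephb3 (17 against 4.57 CPM), Epha10 (64.1 against 26.3 CPM) and Efna5 (28.1 against 12.8 CPM). The Slit2 level of Vip cells (17.5 CPM, against 0.105 CPM in Lamp5 cells) came mostly from 1 cell, and the log2 ratio fell from 4.07 to 1.51 without it. In total 14 of 48 members were higher in Vip cells and 9 were lower, compared with 12.2% and 9.52% of all genes. On the 17 recording days that hold both families (63 Vip and 34 Lamp5 cells) the balance was the reverse, with 7 of 50 members higher in Vip and 16 in Lamp5 cells, and 16.7% and 14.1% of all genes. Ephb2 had the opposite direction in the early period (1.04). In both periods alike 10 and 6 members were past 2-fold, and 5.43% and 4.24% of all genes.

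Between IT cells and the other large glutamatergic families the receptor Unc5d had the largest ratio. Unc5d had 132 CPM (131 to 133) in IT cells, 0.705 CPM (0.564 to 0.871) in ET cells and 0.102 CPM (0.0556 to 0.171) in CT cells. A read of Unc5d was found in 206 of 253 IT cells, 9 of 48 ET cells and 4 of 83 CT cells. Plxnd1 was likewise found in IT cells (37.5 CPM) and near absent from ET (0.303 CPM) and CT cells (0.661 CPM). The ligand of Plxnd1, Sema3e, was highest in ET cells, with 358 CPM and quartiles over cells of 36.8, 244 and 417 CPM, compared with 67.4 CPM in IT and 26.1 CPM in CT cells.

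In ET cells against IT cells, 17 of 57 members were higher and 13 lower, where 11.1% and 11.6% of all genes were called. Besides Sema3e (log2 ratio 2.39), ET cells had more Sema3c (2.85), Epha8 (2.71), Ephb2 (2.03), Robo1 (1.92) and Nrp1 (1.81). The ratios of Sema3f (2.77) and Plxnb1 (1.87) rested on 1 cell each and were 0.16 and -0.89 without it. Beside Unc5d (-6.28) and Plxnd1 (-4.88), ET cells had less Nrp2 (-3.46), Dcc (-3.41), Sema5b (-2.40), Sema4c (-2.35), Ntng2 (-2.06) and Slit1 (-1.98). Directions turned for Sema5b on the 22 days that hold both families (0.59) and for Ephb2 and Sema3f in the late period (-1.28 and -2.07). Both periods alike gave 9 and 8 members past 2-fold, and 3.37% and 6.88% of all genes. The late ET cells numbered 5. Oligodendrocyte markers summed to 1630 CPM in ET and 741 CPM in IT cells, with 6 of 7 called higher in ET cells, and their part in these ratios was not tested.

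More guidance genes were lower than higher in CT cells when set against IT cells. Of 53 members, 27 were lower in CT cells, where 18.5% of all genes were called, and 6 were higher, where 5.7% were. The median log2 ratio was -1.02 over these members and -0.14 over all genes. With families scaled by the median ratio over genes in place of the total, 24 of the 33 called members stayed past 2-fold. The other 9 kept their sign. Lower were Unc5d (-6.91), Epha6 (-4.82), Plxnd1 (-4.53), Nrp2 (-4.46), Unc5c (-3.61), Ntng2 (-3.40), Robo2 (-3.32) and Sema3c (-3.14). With them went 5 of the 6 EphA receptors with 5 CPM and 6 of the 9 plexins and neuropilins. Among the exceptions Sema5a stood out by size, with 144 CPM in CT cells and 3.59 CPM in IT cells (4.99). Nrp1 had 192 and 54.3 CPM (1.80). Efna4 (1.70), Dcc (1.5), Ephb1 (1.28) and Sema5b (1.25) were the other members higher in CT cells. Summed microglia markers were 359 CPM in CT cells and 1087 CPM in IT cells, with all 8 markers called lower in CT cells, and oligodendrocyte markers were 1472 and 741 CPM. Without cells rich in glial markers Sema5a kept a ratio of 4.85 and Unc5d of -6.56, whereas Sema5b had -0.54, and -0.47 on days that hold both families.

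L6b cells, which lie at the border to the white matter beside CT cells, had more of several receptors that were low in CT cells. Unc5c had 81 CPM in L6b and 5.2 CPM in CT cells, Robo2 196 and 15.1 CPM, and Epha5 276 and 39 CPM. Sema5b reached its highest family level here, with 397 CPM against 55.7 CPM, and was read in 18 of 24 L6b cells. Further members higher in L6b cells were Nrp2 (71.3 and 0.385 CPM), Efna1 (17.2 and 0.836 CPM), Efna5 (65.5 and 12.8 CPM) and Plxnb3, whose ratio of 2.19 was -1.51 without 1 cell. The ratio of Nrp2 was 5.71 over all cells. Without those rich in glial markers, 19 of the 24 L6b and 62 of the 83 CT cells, it was 0.48. That value thus rests on few L6b cells. CT cells had more Ephb3 (24.4 against 0.889 CPM), Sema6d (46.1 against 4.60 CPM), Ephb1 (106 against 14.3 CPM), Epha4 (152 against 29.2 CPM), Robo3 (15.8 against 2.79 CPM), Plxna4 (39.5 against 9.65 CPM) and Robo1 (15.2 against 5.18 CPM). Efna4 had no read in L6b cells and 8.37 CPM in CT cells, at least 110-fold higher, taking 3 counts in all L6b cells as the floor. With 24 L6b cells, 19 of 50 members were called higher and 10 lower, where 23.2% and 15.8% of all genes were. Without the cell with most reads of each member, 9 were called higher, with no share of all genes computed. On the 9 days that hold both families 6 of the 29 called members turned, among them Plxna4 (0.28). Oligodendrocyte markers summed to 2034 CPM in L6b cells, and their part in these ratios was not tested.

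**Figure D3:**
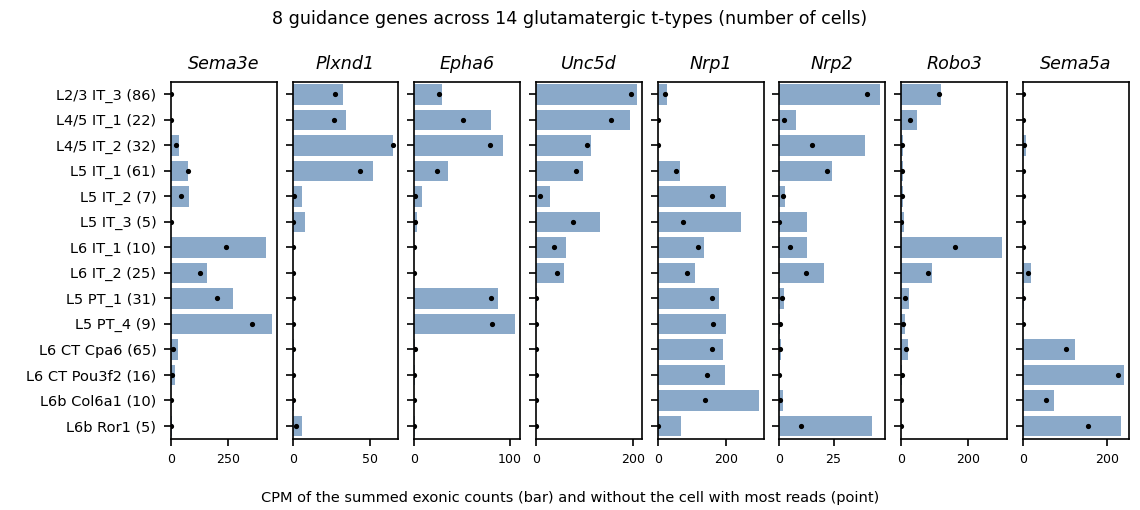
Bars give the CPM of the summed exonic counts of 8 members (panels) in 14 glutamatergic t-types (rows, with the number of cells), and points the CPM without the cell with most reads. Each panel has its own linear axis from 0. Sema3e is long in L6 IT and L5 PT rows and short in L2/3 IT_3, and Plxnd1 is long from L2/3 to L5 IT_1 and near 0 in L6 IT, L5 PT and L6 CT rows.

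Within the IT family, Sema3e and its receptor Plxnd1 were high in different t-types, except that L5 IT_1 held both. Plxnd1 had 32.8 CPM in L2/3 IT_3, 34.5 in L4/5 IT_1, 64.6 in L4/5 IT_2 and 51.8 in L5 IT_1, then 0.297 in L6 IT_1 and no read in the 25 cells of L6 IT_2. Sema3e had 1.71 CPM in L2/3 IT_3 and 1.09 CPM in L4/5 IT_1, 76.8 in L5 IT_1, 417 in L6 IT_1 and 159 in L6 IT_2. Of the 14 glutamatergic t-types with at least 5 cells, only L5 IT_1 held both at over 50 CPM, with a read of Plxnd1 in 42 and of Sema3e in 36 of 61 cells. Among other types, Sema3e reached 274 CPM in L5 PT_1 and 443 CPM in L5 PT_4, where Plxnd1 had 0.345 CPM and no read. Epha6 was, like Plxnd1, high in L2/3 to L5 IT types, with up to 93.3 CPM in L4/5 IT_2, and at 0 and 0.0904 CPM in L6 IT_1 and L6 IT_2. It was however also high in both L5 PT types (87.4 and 106 CPM). Robo3 had 302 CPM in L6 IT_1, 121 in L2/3 IT_3, 94 in L6 IT_2 and 5.22 in L5 IT_1. The type L5 IT_4, with under 5 cells, was not among those 14, and its 4 cells had 78.4, 171, 327 and 959 CPM of Robo3.

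For Plxnd1 and its ligand Sema3e, the 250 bases before each gene's start are shown. They read 5′ to 3′ on the strand of the gene, as RefSeq gives them for GRCm38.p6. Capitals mark the GC box, the letters GGGCGG or, on the opposite strand, CCGCCC. The Plxnd1 stretch is chr6:115995006-115995255 on the minus strand, and the gene covers chr6:115954811-115995005. The Sema3e stretch is chr5:14025026-14025275 on the plus strand, and the gene covers chr5:14025276-14256689. Both stretches lie upstream of the first exon.
Plxnd1: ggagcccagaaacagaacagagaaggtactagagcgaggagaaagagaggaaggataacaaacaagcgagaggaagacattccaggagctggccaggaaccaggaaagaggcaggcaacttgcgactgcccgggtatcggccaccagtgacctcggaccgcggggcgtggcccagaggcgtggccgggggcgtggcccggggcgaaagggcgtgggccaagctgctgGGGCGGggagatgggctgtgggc
Sema3e: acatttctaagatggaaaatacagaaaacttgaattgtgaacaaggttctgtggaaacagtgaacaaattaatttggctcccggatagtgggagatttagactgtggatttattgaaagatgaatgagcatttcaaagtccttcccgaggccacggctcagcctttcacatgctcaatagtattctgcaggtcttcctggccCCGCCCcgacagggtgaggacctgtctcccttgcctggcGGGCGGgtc
The Plxnd1 stretch is 64.8% G and C with 16 CpG pairs and the Sema3e stretch 48% with 7. Neither holds, on either strand, an E-box of the kind read by NeuroD factors (CAGATG). The letters TAATTA, at the heart of many homeodomain sites, are absent from both as well. Over windows from 250 bases before to 50 bases after a start, 60 of the 70 members were matched, with 76 windows. A GC box was in 71.1% of them and in 35.7% of the 32851 windows of all genes, the E-box in 7.89% and 17.2%, and TAATTA in 3.95% and 5.29%. These are counts of letters, and binding was not measured.

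The comparison of L2/3 IT_3 (86 cells) with the 35 L6 IT cells gave 10 of 55 members higher and 14 lower, where 13.7% and 9.98% of all genes were called. In L2/3 IT_3, Plxnd1 (log2 ratio 4.98), Epha6 (4.80), Sema6a (3.24), Epha10 (1.88), Efna2 (1.84), Unc5d (1.82), Plxnc1 (1.55), a receptor for Sema7a, and Ephb1 (1.28) were higher. In L6 IT, Sema3e (-6.35), Sema5a (-3.87), Sema5b (-2.76), Slit1 (-2.32), Sema6c (-2.06), Nrp1 (-2.06), Sema4c (-1.70) and Sema4d (-1.70) were. Most L2/3 IT_3 cells were recorded in the early period and all L6 IT cells in the late one. In late cells alone the ratio of Plxnd1 was 4.79, of Epha6 3.55 and of Sema3e -7.68, and that of Nrp2 was -0.16, against 1.27 over all cells. Microglia markers summed to 1354 CPM in L2/3 IT_3 and 281 CPM in L6 IT, with all 8 called, and without the cells rich in glial markers Plxnd1 had 4.75 and Sema3e -7.35.

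T-types of 1 GABAergic family also differed, as they did in many other genes. Of all genes with 5 CPM in a t-type, 73.1% in Sst, 62.5% in Vip, 53.2% in Lamp5 and 45.8% in Pvalb were at least 8-fold apart. Of the members, 94.9%, 85.5%, 63% and 67.2% were. Levels of Vip, Lamp5 and Pvalb types below include the highest cell, which can set the level of a small type. In the Sst family (15 t-types of at least 5 cells) Sema3e ranged from no read in the 11 Sst Etv1 cells to 640 CPM in the 7 Sst Th_1 cells, or 433 CPM without the highest cell. Ntn1, low in most cortical cells, had 284 CPM in Sst Chodl, the long-range projecting Sst type, with reads in 7 of 12 cells, and a median of 0.358 CPM over the Sst types. Unc5d ranged from 0.0700 CPM in Sst Myh8_3 to 285 CPM in Sst Crhr2_2, where 78.3% of the reads came from 1 cell. The fourth member by range, Plxna4, had 357 CPM in the 6 Sst Htr1a cells from 1 cell and 0.735 CPM without it.

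Lamp5 types (5) differed in Sema5a, from no read in 9 Lamp5 Egln3_1 cells to 440 CPM in Lamp5 Slc35d3, where 30 of 37 cells had a read. Sema3e (Lamp5 Pax6 0, Lamp5 Egln3_2 235 CPM), Unc5c (Lamp5 Egln3_2 0.903, Lamp5 Slc35d3 260 CPM) and Sema6a (Lamp5 Egln3_1 0.0738, Lamp5 Pdlim5_2 120 CPM) followed. Vip types (9) differed in Plxna2 (Vip Htr1f 0, Vip Serpinf1_1 285 CPM), Sema6d (Vip Mybpc1_1 0.213, Vip Serpinf1_1 303 CPM), Epha6 (Vip Htr1f 0.0855, Vip Mybpc1_1 261 CPM) and Epha4 (Vip Htr1f 0.171, Vip Gpc3 216 CPM). The lowest type was Vip Htr1f, of 6 cells, for 3 of these 4.

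Pvalb types (9) differed in Epha4 (Pvalb Calb1_1 0, Pvalb Kank4 120 CPM), Efna5 (Pvalb Vipr2_2 0.0451, Pvalb Gabrg1 125 CPM), Slit1 (Pvalb Vipr2_2 0.180, Pvalb Gabrg1 131 CPM) and Slit3 (Pvalb Gabrg1 0, Pvalb Gpr149 110 CPM). In the IT family (8 types) Nrp1 (L4/5 IT_1 0.168, L5 IT_3 243 CPM), Sema3e, Sema6d (L4/5 IT_1 0.0560, L5 IT_2 206 CPM) and Sema5b (L5 IT_1 0.177, L6 IT_2 128 CPM) had the widest ranges. The Nrp1 level of the 5 L5 IT_3 cells was 74.8 CPM without 1 cell, and the Sema6d level of the 7 L5 IT_2 cells 57.4 CPM.

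Pvalb Vipr2_2 is the t-type of chandelier cells, which place their synapses on the initial segment of axons of glutamatergic neurons. Its 17 cells, all late, were compared with the 117 other Pvalb cells of the late period. Several repellent ligands of the other Pvalb cells were low in them. Slit2 had 9.82 CPM against 276 CPM, Slit1 0.180 against 29.98 CPM and Slit3 0.0451 CPM, a single read, against 51.1 CPM. The counting interval of the Slit3 log2 ratio, without the added 1 CPM, was -15.45 to -7.67. Sema3e had 1.17 against 90.2 CPM. Sema3a and Sema5a had no read, against 24.2 and 11.8 CPM, and were thus at least 179-fold and at least 87.2-fold lower, taking 3 counts in the 17 cells as the floor. Ephb6 (0.721 against 106 CPM), Efna5 (0.0451 against 36.9 CPM, 1 read, counting interval -14.98 to -7.20) and Ntng1 (0.0901 against 29.3 CPM, 2 reads, -11.39 to -6.49) were lower too.

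Chandelier cells had more Unc5b, a netrin receptor that was under 5 CPM in each large family, with 43.6 CPM against 1.12 CPM (log2 ratio 4.39, or 3.84 without the highest cell). Sema4a (35.2 against 2.72 CPM) was higher as well and had a ratio of 2.93 without the highest cell. Ratios of Epha2 (2.57), Efnb1 (2.49) and Nrp1 (2.24) were 0.79, 2.08 and 1.31 without that cell. Those of Ntng2 (2.82), Sema4d (2.25), Epha3 (2.22) and Dcc (1.40) lay between -0.19 and 0.05 without it, so each of these 4 rested on 1 cell. In total 11 of 49 members were higher and 19 lower, where 13.9% and 22% of all genes were called. Without the highest cell 7 were higher, with no share of all genes computed. Microglia markers summed to 3554 CPM in the chandelier cells and to 854 CPM in the others, oligodendrocyte markers to 242 and 862 CPM, and those of oligodendrocyte precursors to 51 and 12.6 CPM. Without cells rich in glial markers the ratio of Unc5b was 5.45, of Slit2 -7.58 and of Ephb6 -6.85, but those of Efnb1 (-0.26), Sema4d (-0.32), Nrp1 (-1.93) and Epha2 (-0.02) turned.

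**Figure D4:**
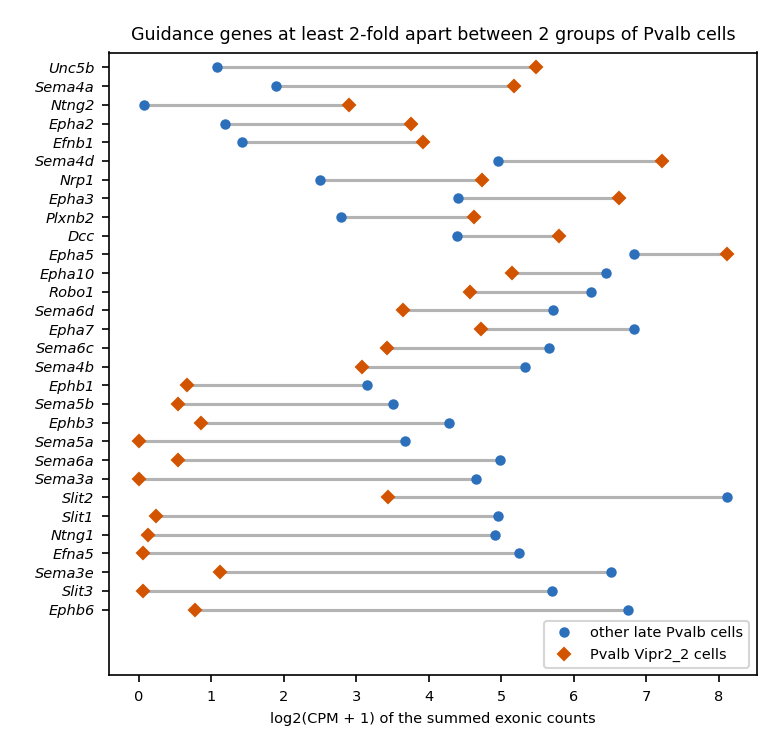
Each row is a member called between Pvalb Vipr2_2 cells (diamonds, 17 cells) and the other late Pvalb cells (circles, 117 cells), placed at log2(CPM + 1) of the summed exonic counts. The 11 rows at the top are higher in Pvalb Vipr2_2 and the 19 below are lower, among them all 3 Slits.

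A later experiment at 34 °C gave other cells of the Sst (110 cells) and IT (43 cells) families, with exonic and intronic counts. Exonic levels in Sst cells were lower than in IT cells for 22 of 51 members and higher for 8, where 16% and 9.42% of all genes were called. Robo1 (29.7 and 1.92 CPM, log2 ratio 3.39), Efnb3 (3.24), Sema4g (2.67), Sema6d (1.96), Sema6a (1.87), Sema3a (1.86), Plxna3 (1.70) and Epha10 (1.15) were higher in Sst cells. Nrp1 (0.104 and 63.5 CPM, -5.87), Plxnd1, Slit3 (-4.13), Slit2 (-3.46), Ephb1 (-3.23), Efnb2 (-3.23), Ntng2 (-3.14) and Epha4 (-3.05) were lower. Plxnd1 had 1 read in Sst cells and 23 CPM in IT cells, with a counting interval of -16.90 to -9.11 for the log2 ratio. Robo3 had no read in Sst cells and 6.70 CPM in IT cells, at least 299-fold higher, with a floor of 3 counts in all Sst cells.

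The same t-types at 25 °C (250 Sst and 105 IT cells) gave 19 of 53 members lower and 10 higher in Sst cells, with 15.9% and 11.7% of all genes. In both periods alike 11 members were lower and 9 higher, and 8.26% and 7.09% of all genes. Of the 30 members called at 34 °C, 23 were called in the same direction at 25 °C and 27 had the same sign. For all genes called at 34 °C the share was 57.2% (1865 of 3261). At 34 °C the bath also held kynurenic acid and picrotoxin, which block fast synaptic currents. Temperature, blockers, animals and date differed together between the experiments and cannot be told apart.

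Intronic reads come largely from unspliced RNA and were counted apart from the exons. Of the 30 members, 28 had the same sign in introns and 20 of these were past 2-fold, compared with 75.9% and 49.4% of all 3261 genes called in exons. Robo1 had 1625 CPM of intronic counts in Sst cells and 137 CPM in IT cells, a ratio of 3.56 beside 3.39 in exons. The intronic ratios of Nrp1 (-5.73), Slit2 (-3.83) and Slit3 (-4.04) likewise lay close to the exonic ones. Sema3a was the opposite case, with 66.8 and 17.7 CPM in exons but 74 and 133 CPM in introns, a ratio of -0.84. Efnb1 was the other member of opposite sign, with 0.04 in introns, where both groups had under 0.1 CPM. Robo3 kept its sign, but its intronic levels were low and close, at 0.454 CPM in Sst cells (21 reads) and 0.664 CPM in IT cells (25 reads). Glia moved with this comparison, as 7 of 8 microglia and all 8 astrocyte markers were lower in Sst cells. Without cells rich in glial markers 14 members were higher and 13 lower. No share of all genes was computed for that subset, so a shift of all genes cannot be told from one of the members.

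**Figure D5:**
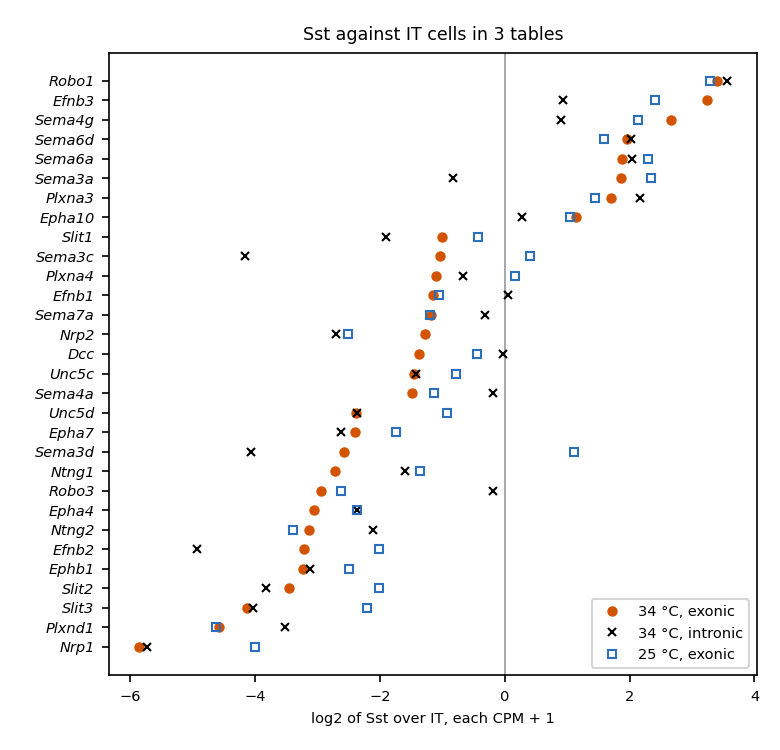
Each row is a member called between Sst and IT cells at 34 °C, and symbols give the log2 ratio of Sst over IT after adding 1 CPM in exonic counts at 34 °C (filled circles), intronic counts at 34 °C (crosses) and exonic counts of the same t-types at 25 °C (open squares). Right of the line at 0 is higher in Sst cells. The symbols share a side in most rows, and Sema3a has its cross on the other side.

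Genes that work with the guidance receptors were described from 2 lists, 21 partners at the membrane and 40 signalling genes of the growth cone. Between GABAergic and glutamatergic neurons 1 of 19 measured partners was higher and 1 lower, the adhesion molecule Chl1 (341 and 123.2 CPM) and the receptor Met (1.74 and 8.07 CPM), where 8.83% and 10.3% of all genes were called. Of 38 measured signalling genes, 7 were higher and 6 lower, with Dpysl5 (60.7 and 7.50 CPM), a collapsin response mediator, and Srgap1 (12.4 and 1.67 CPM), a Slit and Robo GTPase activator, on one side. On the other were Ngef (62.6 and 380 CPM), an exchange factor downstream of Epha4, and Ptk2 (119 and 361 CPM), the focal adhesion kinase. Epha4 was itself higher in glutamatergic neurons (80.5 and 256 CPM), with IT cells at 355 CPM and Pvalb cells at 40.6 CPM.

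Sst cells had more Chl1 than Pvalb cells (557 against 41.4 CPM) and more Dscam (62.4 against 9.29 CPM), a partner in netrin signalling, among 5 of 17 partners that were lower in Pvalb cells, where 7.39% of all genes were called. Vip cells had more Cntn4 (270 against 24.1 CPM) and less Srgap1 (1.12 against 35.4 CPM) than Lamp5 cells. CT cells had 3.57 CPM of Srgap3 against 129 CPM in IT cells, beside their low level of the Slit receptor Robo2, and L6b cells 57.5 CPM. Chandelier cells had less Dscam (0.0901 against 11.9 CPM) and Gpc1 (0.451 against 19.1 CPM), a heparan sulphate carrier, than other Pvalb cells.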

How the data were processed

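Smart-seq2 libraries of single neurons carried no molecular identifiers and were read from one end over 75 bp. The authors split them by cell with bcl2fastq (2.20), mapped them with STAR (2.5.4b) to mm10 and obtained exonic and, apart from these, intronic counts of each gene with zUMIs. The deposited values are raw counts, in which PCR copies are not merged, so intervals cover counting error only. At 25 °C, 1320 of 1329 columns have a sample, 9 do not and were not used, and the 1228 cells with a t-type were analysed.

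Sums over the cells of each group were divided by their total without the 85 spike-in rows, which held 4.28% of counts. The GABAergic and the glutamatergic group are means over families, and so is the pair of Pvalb and Sst and that of Vip and Lamp5. Log2 ratios were taken after adding 1 CPM. Members and gene lists were chosen with earlier results of these data known. In each comparison the 8 members with the largest ratio in each direction are named, in each role the highest per kb of exon, and within a family the 4 with the widest range over t-types. The lists of partners and signalling genes name the largest changes in each direction, or a selection of these made with the values seen. Marker lists cover both kinds of neurons, microglia, astrocytes, oligodendrocytes and their precursors, and endothelial and mural cells. The comparison of exons with introns had been planned at 25 °C and was made at 34 °C, since the 25 °C intronic table was not used. Thinning drew 200000 counts a cell and left 1157 cells at 25 °C. The computation was tested on simulated data. Gene positions follow GENCODE for GRCm38. Scripts ran in Python 3.11.15 with pandas 2.3.3, numpy 2.4.6, matplotlib 3.10.9 and scipy 1.17.1.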

Additional observations from a re-analysis of the deposited data

Results flagged for a closer look

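Some members differed by at least 2-fold in opposite directions in the early and in the late recording period, in the same comparison of families. None of these differences was tested, and the smaller period held few cells, with 6 Vip and 8 Lamp5 cells early and 5 ET cells late. Between the Pvalb and Sst pair and the Vip and Lamp5 pair, Nrp1 had a log2 ratio of 1.216 early and of -1.82 late. Between Vip and Lamp5 cells, Ephb2 had 1.037 and -1.815, Sema3e 1.78 and -1.173, and Sema4a -3.647 and 1.407. Between ET and IT cells, Epha10 had 1.687 and -1.038, and Ephb2 1.724 and -1.275. In the same comparison Sema3f had 3.645 and -2.066, Sema4g 1.939 and -1.339, and Sema6c 1.17 and -4.121.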

How the results depend on the processing

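No paired analysis was possible because no label pairs single cells across groups and no result comes from a test, and values on recording days that hold both groups are given instead. The intronic alternative at 25 °C was not run. Of the 253 counts of called members under the alternatives, 240 stayed within 1.5 times the value reported. The other counts follow, and the cause of the changes was not tested. Except for the days that hold both groups, no share of all genes was computed under these alternatives. Whether all genes shifted alike is thus not known. On the days that hold both groups, 7 members (14 over all days) were higher in Vip and 16 (9 over all days) in Lamp5 cells. In the late period alone, 22 members (13 over both periods) were lower in ET than in IT cells, and 12 (19 over both periods) lower in Sst than in IT cells at 25 °C. Without the cell with most reads of each gene, an alternative chosen after seeing the data, 9 members (19 before) were higher in L6b than in CT cells and 7 (11 before) in Pvalb Vipr2_2 than in other Pvalb cells. Without cells over 1000 CPM of glial markers, 14 members (8 before) were higher and 13 (22 before) lower in Sst than in IT cells at 34 °C. Members at least 8-fold apart between t-types numbered 56 of 59 in Sst, 29 of 46 in Lamp5 and 44 of 62 in IT cells, and among all genes the share was 73.1%, 53.2% and 53.3%. They were 37, 19 and 28 without the highest cell of each gene, and 1 in Lamp5 and 28 in IT cells with t-types of at least 10 cells.

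Among the 8 members with the largest ratio each way, directions turned as follows, in log2 ratios. In the early period alone Nrp1 had 1.22 in the Pvalb and Sst pair against Vip and Lamp5, and Ephb2 1.04 in Vip against Lamp5. In the late period alone Sema3f had -2.07 and Ephb2 -1.28 in ET against IT. As a mean over t-types, Slit1 had -0.60 in Vip against Lamp5 and Plxnb3 -1.58 in L6b against CT. Without the highest cell, Plxnb1 had -0.89 (ET against IT), Plxnb3 -1.51 (L6b against CT), and Ntng2 -0.0024 and Epha3 -0.068 (Pvalb Vipr2_2). On days with both groups, Sema5b had 0.59 (ET against IT) and -0.47 (CT against IT), Plxna4 0.28 (L6b against CT), and Sema6c -0.28 and Plxna3 -0.40 (Sst against IT at 25 °C). Without cells rich in glial markers, Sema5b had -0.54 (CT against IT), and in Pvalb Vipr2_2 Epha2 had -0.019, Efnb1 -0.26, Sema4d -0.32 and Nrp1 -1.93. In introns Sema3a had -0.84 (Sst against IT at 34 °C). Among the values of these leading members, 1817 kept direction and call, 76 kept the direction only, and 21 turned. Over all called members 49 of 3244 values turned, 6 of them in L6b against CT on days with both groups. Beyond the leading members these include Ephb2 (0.85, late, GABAergic against glutamatergic), Dcc (-0.19, Pvalb Vipr2_2, without the highest cell), Efnb1 (0.04, introns), and Sema3e (1.78) and Sema4a (-3.65) in Vip against Lamp5 in the early period. Depth limits members with few reads, and for t-types of few cells 1 cell can set a level.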
